A study of Drosophila melanogaster with 6 samples.

Results

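The genes described here belong to the dosage compensation machinery of the fruit fly Drosophila melanogaster. Most encode parts of the chromatin complex that raises transcription of the single X chromosome in males. JIL-1 and Su(var)3-7 encode chromatin proteins linked to that complex and are not among its core subunits. All members were chosen by name: msl-1, msl-2, msl-3, mle, mof, roX1, roX2, JIL-1 and Su(var)3-7, 9 genes in all. Probe sets, the groups of array probes that measure a transcript, were annotated to 7 of the 9, with 2 for msl-3 and 1 for each of the others, which makes 8 of 18769 probe sets that are not controls. No probe set of the annotation used here carries roX1 or roX2, so these RNAs were not analysed here.

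RNA was measured in the heads of adult males aged 2 to 5 days and raised at 25 °C. The 3 deletion samples came from males with the genotype cm Sxlfp7BO ct, in which the whole Sex-lethal (Sxl) gene is missing and the flanking visible markers carmine (cm) and cut (ct) are mutant. The 3 wild-type samples are labelled Oregon-R and came from brothers of those males, after repeated backcrossing of the deletion to Oregon-R. Loss of Sxl, the markers and any linked Oregon-R or donor stretch of the X cannot be told apart in this design. Each genotype was measured on 3 one-colour Affymetrix arrays, called biological replicates in the labels.

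In flies, males have 1 X and females have a pair, and the male-specific lethal (MSL) complex corrects the difference. The proteins MSL-1, MSL-2, MSL-3, MLE and MOF assemble with the noncoding RNAs roX1 and roX2 on the male X, where MOF acetylates histone H4. In females the RNA-binding protein SXL blocks splicing and translation of the msl-2 transcript, so that no complex forms. Males splice Sxl so that full-length SXL protein is not made, although their heads hold Sxl transcripts. Comparing deletion males with their brothers asks whether RNA of the listed genes differed when those transcripts were gone.

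The arrays matched their labels. Across its 3 probe sets, Sxl had mean intensities from 97.8 to 190 in wild type and from 4.65 to 6.19 in deletion males. The latter lay near the lowest intensity of 3.52 on any array. The marker gene cm was also lower, with means of 60.3 in wild type and 24.8 in deletion males. Its log2 fold change, deletion minus wild type, was -1.25 (limma adjusted p = 0.00178). The probe sets of ct had 0.23, 0.03 and -0.16, with 0.554 as the smallest limma adjusted p. Array medians lay between 14.2 and 14.6, and correlations between arrays were from 0.994 to 0.998. Marker genes of photoreceptors, neurons and glia were measured well above the 8.35 that served as the lower limit for testing. By their mean log2 values over the 6 arrays, all 3 genes of the male accessory gland and all 4 of the testis lay below it. Single arrays reached higher, such as 14.1 for the testis gene Mst84Da on wild-type replicate 1. Summed intensities of the testis genes ran from 26.8 to 36.2 in wild type and from 21.2 to 23.0 in deletion males, without overlap. Taken singly, ocn and Mst84Da did not overlap, while dj and Mst87F did. Head fat body genes differed with genotype. Summed intensities of fit and Obp99b ran from 6353 to 9222 in wild type and from 3720 to 4712 in deletion males. Both passed limma without a block, Obp99b at -0.91 (adjusted p = 0.0446) and fit at -0.62 (adjusted p = 0.0448). Summed intensities of the photoreceptor genes trp, Arr1 and Arr2 ran from 18144 to 20982 and from 22621 to 23163. Those of 3 glial genes (1558 to 1776 and 1521 to 1627) and 3 neuronal genes (772 to 942 and 893 to 1013) overlapped. With the replicate number as a block, the glial nrv2 was lower (-0.24, limma adjusted p = 0.0377). The neuronal nSyb (0.30, limma adjusted p = 0.0433) and trp (0.55, limma adjusted p = 0.0217) were higher in that fit. The yolk gene Yp3 (58.4 to 85.9 in wild type, 88.8 to 97.0 in deletion males) did not overlap. Nor did the muscle gene up (324 to 414 and 423 to 462). Neither passed with or without the block. Yp1 and Yp2 were too dim to be tested and went opposite ways, both without overlap. Yp1 had 7.73, 9.02 and 10.5 in wild type and 7.09, 6.30 and 6.68 in deletion males. Yp2 had 7.42, 6.84 and 7.17 in wild type and 7.66, 8.11 and 7.69 in deletion males. The tested gut genes Mal-A1 and betaTry overlapped. The ratio of 3′ to 5′ signal for eIF-4a, a sign of RNA integrity, came to 3.55, 3.73 and 4.08 on the wild-type arrays and 3.47, 3.45 and 3.30 on the deletion arrays. The same ratio overlapped between genotypes for actin (means 3.38 and 3.11) and, with the higher mean in deletion males, for GAPDH (3.67 and 3.81). The part of these differences in the values below was not tested, and in whole heads fewer cells of a type and less RNA per cell cannot be told apart.

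None of the 8 probe sets passed the test at an adjusted p under 0.05, where 2.6% of the 11261 tested probe sets did (293, with limma and Benjamini-Hochberg adjustment over all of them). All 8 were bright enough to be tested. Before adjustment 2 had a limma p under 0.05, against 17.6% of all tested probe sets. With the replicate number as a block, 1 of the 8 was called, where 7.4% of all were. It was Su(var)3-7, which is not a core subunit of the complex. Su(var)3-7 was also the 1 called with array weights, where 5.08% of all were, and at a threshold of 0.1, where 6.07% were. Log2 fold changes, given throughout as deletion minus wild type on the scale of log2(intensity + 1), had a median of -0.11 over the 8, against 0.0044 over all tested probe sets, with 5 negative and 3 positive. Intensities of different genes are not compared here, because each probe set has its own brightness.

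**Figure D1:**
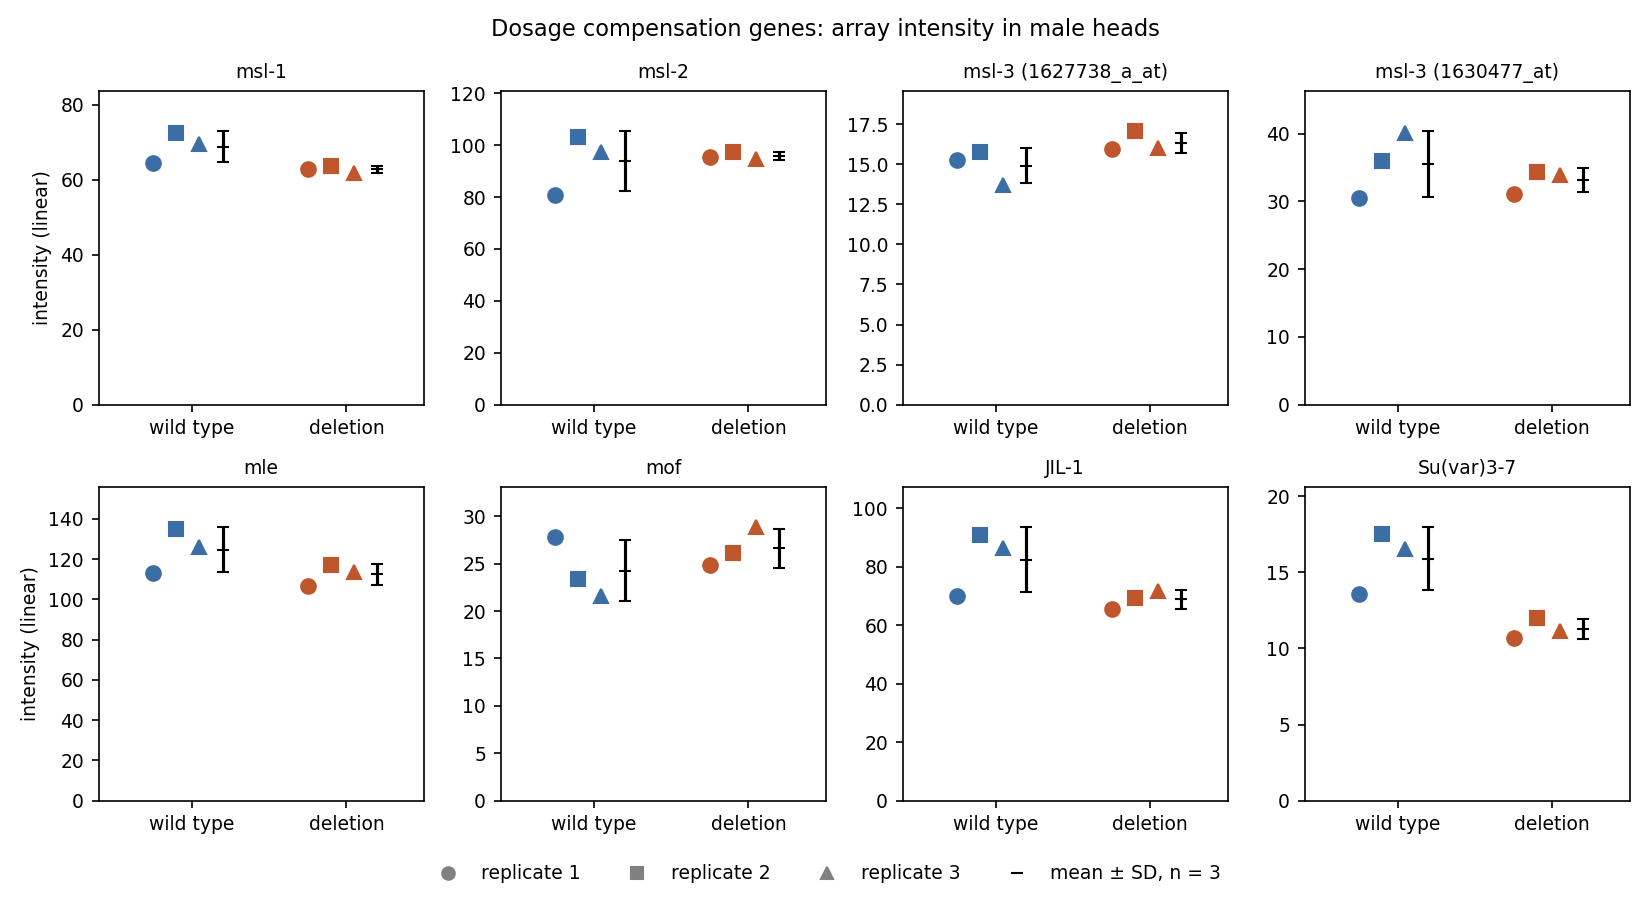
Linear intensity of the 8 probe sets on each array, with wild type in blue, deletion in orange, a symbol for each replicate number, and bars for the mean ± SD of 3 arrays. Su(var)3-7 is the clearest separation, with wild-type values from 13.6 to 17.5 and deletion values from 10.7 to 12.0, while the msl-2 values of the deletion arrays lie within the wild-type range.

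MSL-2 is the subunit whose synthesis SXL blocks in females, and it limits assembly of the complex. Its transcript had intensities of 80.9, 103 and 97.4 in wild type and 95.3, 97.5 and 94.8 in deletion males. All 3 deletion values lay inside the wild-type range. The log2 fold change was 0.04 ± 0.09 (SE, n = 3 arrays per genotype), with a 95% interval from -0.18 to 0.26 and a limma adjusted p of 0.887. On this scale the interval reaches from 0.883 to 1.19 times the wild-type level. Its direction rested on 1 array: without wild-type replicate 1, the lowest of the 6, the value was -0.06 with a limma adjusted p of 0.66. The array measures RNA, so the amount of MSL-2 protein and the splicing of its first intron were not assessed.

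MSL-1 is the scaffold of the complex and binds MSL-2. Intensities of msl-1 were 64.4, 72.5 and 69.5 in wild type and 62.7, 63.6 and 61.9 in deletion males. The genotypes did not overlap, but the lowest wild-type array stood just above the highest deletion array. The log2 fold change was -0.13 ± 0.07 (SE), with a 95% interval from -0.29 to 0.04 and a limma adjusted p of 0.406.

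MSL-3 reads a histone mark of active genes through its chromodomain and helps the complex spread. Its 2 probe sets had estimates of opposite sign. The probe set whose identifier ends in a_at had 15.3, 15.8 and 13.7 in wild type and 15.9, 17.0 and 15.997 in deletion males, with every deletion value above every wild-type value by a small margin. The other had 30.4, 35.9 and 40.1 in wild type and 31.1, 34.4 and 33.8 in deletion males, with the deletion values inside the wild-type range. The log2 fold changes were 0.12 ± 0.09 (limma adjusted p = 0.519) and -0.09 ± 0.11 (limma adjusted p = 0.753). Both 95% intervals include 0, from -0.07 to 0.32 and from -0.34 to 0.17, so no direction can be given for msl-3 RNA.

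MLE is an RNA helicase that remodels the roX RNAs so that they can join the complex. Intensities of mle were 113, 135 and 126 in wild type and 107, 117 and 113 in deletion males. The genotypes overlapped at the wild-type array with replicate number 1. The log2 fold change was -0.14 ± 0.08 (SE), with a 95% interval from -0.33 to 0.04 and a limma adjusted p of 0.414, and the deletion array was lower in 3 of 3 pairs of equal replicate number.

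MOF is the acetyltransferase of the complex and the 1 protein member whose gene lies on the X. In gene order mof is 164 genes from Sxl on the side of cm, outside the stretch between the markers, since cm itself is 9 genes from Sxl. Intensities of mof were 27.8, 23.4 and 21.6 in wild type and 24.8, 26.2 and 28.8 in deletion males, and the genotypes overlapped. The log2 fold change was 0.13 ± 0.11 (SE), with a 95% interval from -0.12 to 0.39 and a limma adjusted p of 0.606. The pairs of equal replicate number went both ways, with differences of -0.16, 0.15 and 0.40. Of the 5 genes on each side of mof, 3 were tested and none was called by limma, with or without the block. Of all tested probe sets, 2.6% were called without it and 7.4% with it. Before adjustment none of the 3 had a limma p under 0.05, where 17.6% of all did. The genes next to it on either side, GAA1 and Usp30, had log2 fold changes of 0.01 and -0.04.

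JIL-1 is a histone H3 kinase that is enriched on the male X with the complex and keeps heterochromatin from spreading. Its intensities were 69.9, 90.7 and 86.5 in wild type and 65.5, 69.1 and 71.8 in deletion males. Wild-type replicate 1 lay among the deletion arrays and the other two lay above all of them. The log2 fold change was -0.25 ± 0.10 (SE), with a 95% interval from -0.49 to -0.01 and a limma adjusted p of 0.274, or 0.116 with the block. Without wild-type replicate 1 the value was -0.36 and JIL-1 passed, with a limma adjusted p of 0.0459, in a fit that called 3.84% of all probe sets.

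Su(var)3-7 encodes a zinc finger protein of heterochromatin, a partner of the heterochromatin protein HP1, which is known to affect how the male X is packed and where the complex binds. Its intensities were 13.6, 17.5 and 16.5 in wild type and 10.7, 12.0 and 11.1 in deletion males. Every deletion value lay below every wild-type value, and the means were 15.9 ± 2.06 and 11.3 ± 0.668 (SD, n = 3). The log2 fold change was -0.45 ± 0.11 (SE), with a 95% interval from -0.71 to -0.20, or 0.730 times the wild-type level. The limma adjusted p was 0.0768, and 0.0349 with the block, with lower values in 3 of 3 pairs (-0.32, -0.51 and -0.53). Both adjusted values come from a probe set of low intensity, and the estimate was -0.22 with a pseudocount of 16 (limma adjusted p = 0.0794).

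**Figure D2:**
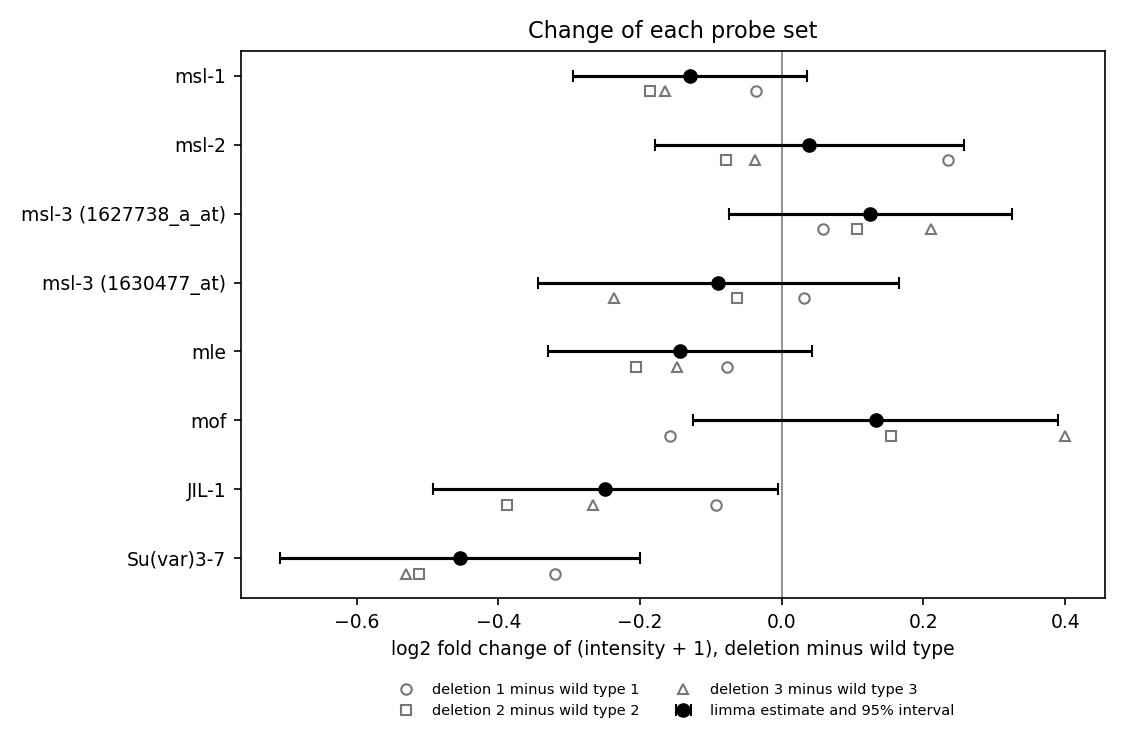
Log2 fold change of each probe set, deletion minus wild type, with black points for the limma estimate, bars for its 95% interval and open symbols for the differences within pairs of equal replicate number. The intervals of Su(var)3-7 (-0.71 to -0.20) and JIL-1 (-0.49 to -0.01) lie below 0 before adjustment, and the other 6 include it.

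Genes next to Su(var)3-7 in gene order went both ways. Of the 5 on each side, 6 were tested, 5 with a positive and 1 with a negative log2 fold change. Over all tested probe sets, 5782 of 11261 were positive. Of those too dim to be tested, CG8476 (0.20) and apn (0.28) were positive, CG15888 (-0.15) and Osi22 (-0.02) negative. None of the 6 was called by limma, with or without the block, where 2.6% of all were called without it and 7.4% with it. At an unadjusted limma p under 0.05 there was 1 of the 6, CG8483 (0.20, limma adjusted p = 0.253), against 17.6% of all tested probe sets. TBC1D5, whose span overlaps that of Su(var)3-7 in the RefSeq annotation, had 195, 202 and 160 in wild type and 214, 205 and 220 in deletion males, a log2 fold change of 0.20 (limma adjusted p = 0.3). These neighbours were chosen for display after the values of Su(var)3-7 were known.

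The probe sets whose pattern over the 6 arrays was most like that of Su(var)3-7 belonged to CG14186 (Pearson r = 0.996), Smox (0.995) and zfh2 (0.995), the highest among all tested probe sets with 1 gene. They share the 6 arrays, and so high a value is a description of the best matches among many. Since Su(var)3-7 itself separated the genotypes, the choice largely fixed their direction, and no test of them is given. CG14186 had 362, 460 and 450 in wild type and 283, 325 and 308 in deletion males, a log2 fold change of -0.46. Smox, an X-linked gene for a Smad protein of activin signalling, 123 genes away from Sxl towards ct, had -0.23. The transcription factor gene zfh2 on the small chromosome 4 had -0.25.

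Variation among the wild-type arrays was large for these genes. In 8 of 8 probe sets the SD of the log2 values was larger in wild type than in deletion males, against 60.5% of all tested probe sets. For the 8, the median SD was 0.18 on the wild-type and 0.07 on the deletion arrays, and for all tested probe sets 0.10 and 0.08. Wild-type replicate 1 was the lowest wild-type array for 6 of the 8, where it was lowest for 43.7% of all tested probe sets. Wild-type replicate 2 was the highest for 6 of the 8, against 31.9% of all. In the deletion males replicate 1 was again the lowest for 6 of the 8 and replicate 2 the highest for 6, against 38.8% and 35% of all. The 8 probe sets share their arrays, so these counts are descriptions and no test of them was made.

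The 3 values of a genotype all lay beyond those of the other for msl-1, Su(var)3-7 and the msl-3 probe set ending in a_at, 3 of 8, where 24% of all tested probe sets were so separated. The deletion array was lower in 3 of 3 pairs for msl-1, mle, JIL-1 and Su(var)3-7, 4 of 8, where 22% of all were, and higher in 3 of 3 for 1, where 22.7% were. These counts are over few probe sets that share their arrays, and were not tested. The median standard error of the 8 was 0.10, against 0.08 for all tested probe sets.

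**Figure D3:**
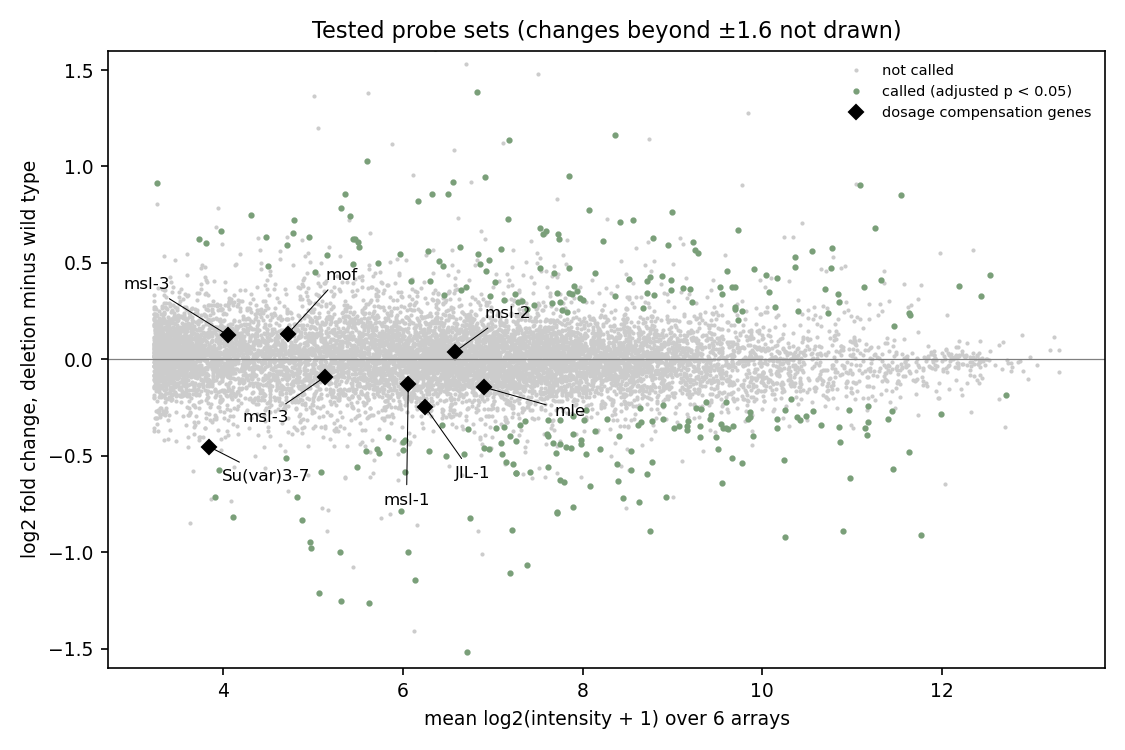
Log2 fold change, deletion minus wild type, against mean log2(intensity + 1) over the 6 arrays for all tested probe sets, with called ones in green and the 8 dosage compensation probe sets as black diamonds. The axis ends at ±1.6 and 13 probe sets lie beyond it, and the diamonds lie within the grey cloud, with Su(var)3-7 (-0.45) at its lower edge among dim probe sets.

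Related genes, in 4 lists, gave no call. The lists hold factors that work with the MSL complex, the NSL complex, cofactors of msl-2 repression and heterochromatin proteins. Each gene is represented by its brightest probe set. Of 30 tested genes none passed limma with Benjamini-Hochberg adjustment, with or without the block. Of all tested probe sets, 2.6% passed without it and 7.4% with it, so over 30 genes few calls would be found at those shares. Before adjustment 7 of the 30 had a limma p under 0.05, 4 higher and 3 lower, against 17.6% of all tested probe sets. The genotypes did not overlap for 10 of the 30, where 24% of all tested probe sets were so separated.

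The first list holds factors that guide the MSL complex or act on its chromatin, 12 of 14 tested, 6 positive and 6 negative with a median of -0.02. Iswi, the motor of chromatin remodelling complexes, which in flies is needed for the normal shape of the male X, had 76.8, 72.4 and 71.8 in wild type and 90.1, 95.1 and 85.0 in deletion males. All 3 deletion values lay above those of wild type, with a log2 fold change of 0.29 ± 0.07 and a limma adjusted p of 0.0821, or 0.0547 with the block. MRG15, a chromodomain relative of MSL-3, had 0.17 (limma adjusted p = 0.222), and Trl, which encodes the GAGA factor, had 0.13 (limma adjusted p = 0.283). Clamp, the zinc finger protein that brings the complex to its entry sites on the X, had 315, 343 and 341 in wild type and 324, 319 and 331 in deletion males, with a 95% interval of the log2 fold change from -0.16 to 0.09. Clamp was singled out for this role after its values were seen.

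The second list is the NSL complex, which shares MOF with the MSL complex and acts at promoters on all chromosomes. Of 7 genes 6 were tested, 4 positive and 2 negative with a median of 0.02. Its scaffold gene nsl1 had 242, 266 and 248 in wild type and 231, 224 and 218 in deletion males, which do not overlap, with a log2 fold change of -0.17 ± 0.06 (limma adjusted p = 0.183). Rcd5 had 0.12 (limma adjusted p = 0.32) and wds, an X-linked WD40 repeat gene, had -0.15 (limma adjusted p = 0.513).

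The third list holds cofactors that work with SXL to repress msl-2 in females, of which 3 of 4 were tested. Unr, the RNA-binding protein that SXL recruits to msl-2, had 161, 168 and 174 in wild type and 183, 184 and 177 in deletion males. Its deletion values all lay above those of wild type, with a log2 fold change of 0.11 ± 0.06 (limma adjusted p = 0.338). The poly(A)-binding protein gene pAbp had -0.12 (limma adjusted p = 0.576) and Hrb27C had 0.02 (limma adjusted p = 0.892).

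The fourth list holds heterochromatin proteins, the setting in which Su(var)3-7 acts, with 9 of 12 genes tested, 3 positive and 6 negative and a median of -0.07. Su(var)205, which encodes HP1, had 430, 454 and 406 in wild type and 379, 383 and 376 in deletion males. Its genotypes did not overlap, with a log2 fold change of -0.18 ± 0.05 and a limma adjusted p of 0.136, or 0.0687 with the block. ADD1 had -0.36 on its brightest probe set (limma adjusted p = 0.143), while its other two had -0.16 and 0.32, so its probe sets disagreed. HP1c, an HP1 relative found at active genes, had 0.20 (limma adjusted p = 0.155), opposite in sign to Su(var)205.

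**Figure D4:**
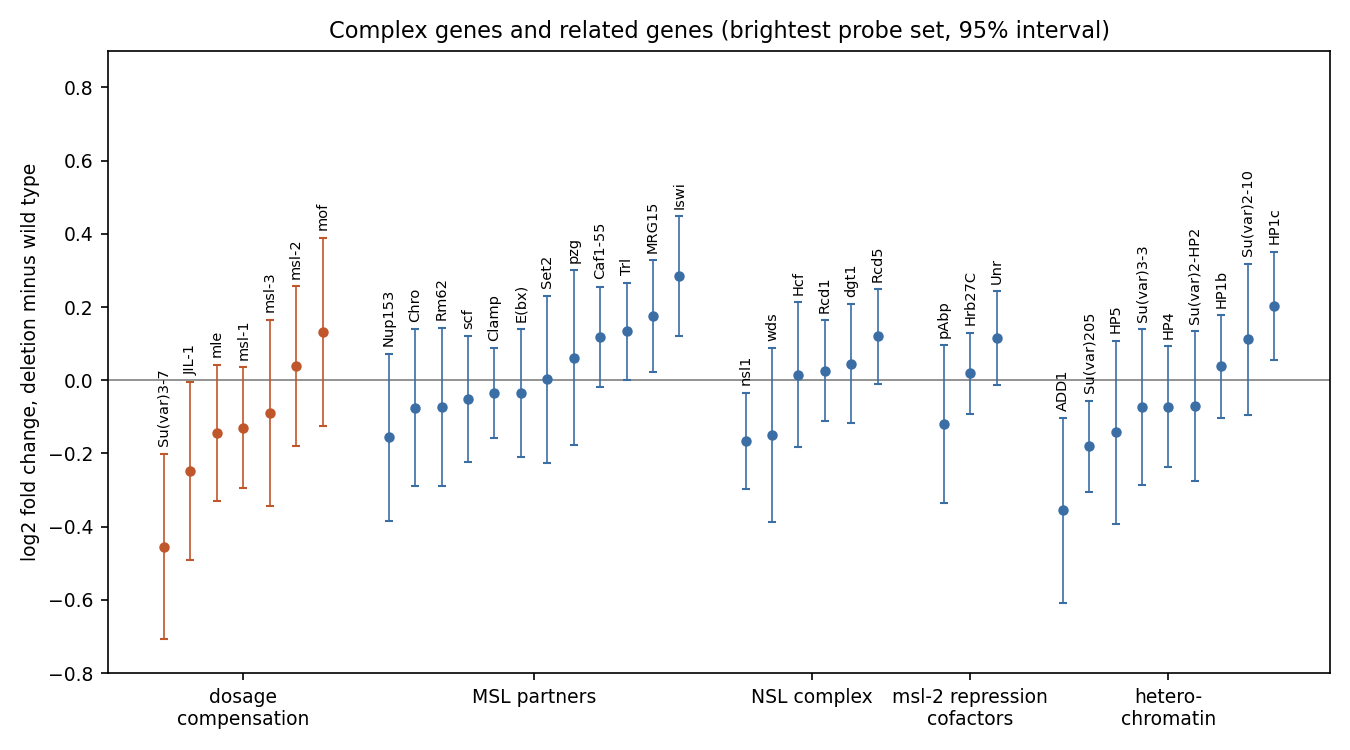
Log2 fold change, deletion minus wild type, of the brightest probe set of each gene, with bars for the 95% interval before adjustment, in orange for the dosage compensation genes and in blue for the 4 related lists. Su(var)3-7 (-0.45) and Iswi (0.29) are the lowest and the highest of the genes drawn, neither passed the adjusted limma test without the block, and with it Su(var)3-7 passed (adjusted p = 0.0349) and Iswi did not (0.0547).

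The output of the machinery, expression of the X as a whole, was read from the difference between the median log2 value of X-linked and of autosomal probe sets on each array. Genes from cm to ct were left out, which leaves 1587 X-linked and 8025 autosomal probe sets. The offset was -0.26, -0.19 and -0.18 in wild type and -0.20, -0.19 and -0.20 in deletion males. Wild-type replicate 1, the lowest wild-type array for 6 of the 8 probe sets above, stood apart here too, and the deletion values lay between it and the other wild-type arrays. The means were -0.21 ± 0.041 and -0.20 ± 0.0048 (SD, n = 3), a change of 0.013 (exact permutation p = 1, two-sided). With 3 arrays against 3 this test cannot go below 0.1. The sign of the change turned without wild-type replicate 1 (-0.0059). The size of this offset can depend on which probes the array holds for each chromosome. The part of probe content in it was not tested, so only its change between genotypes is read here. By the limma fit, 68 of the 1587 X-linked probe sets (4.28%) and 171 of the 8025 autosomal ones (2.13%) were called, a description with no test here. Leaving out the genes from cm to ct does not remove a linked stretch of the X beyond the markers. The part of such a stretch in these calls cannot be told apart. Over probe sets, the median log2 fold change was 0.02 on the X, with quartiles of -0.07 and 0.11, and -0.00029 on the autosomes, with quartiles of -0.09 and 0.09.

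**Figure D5:**
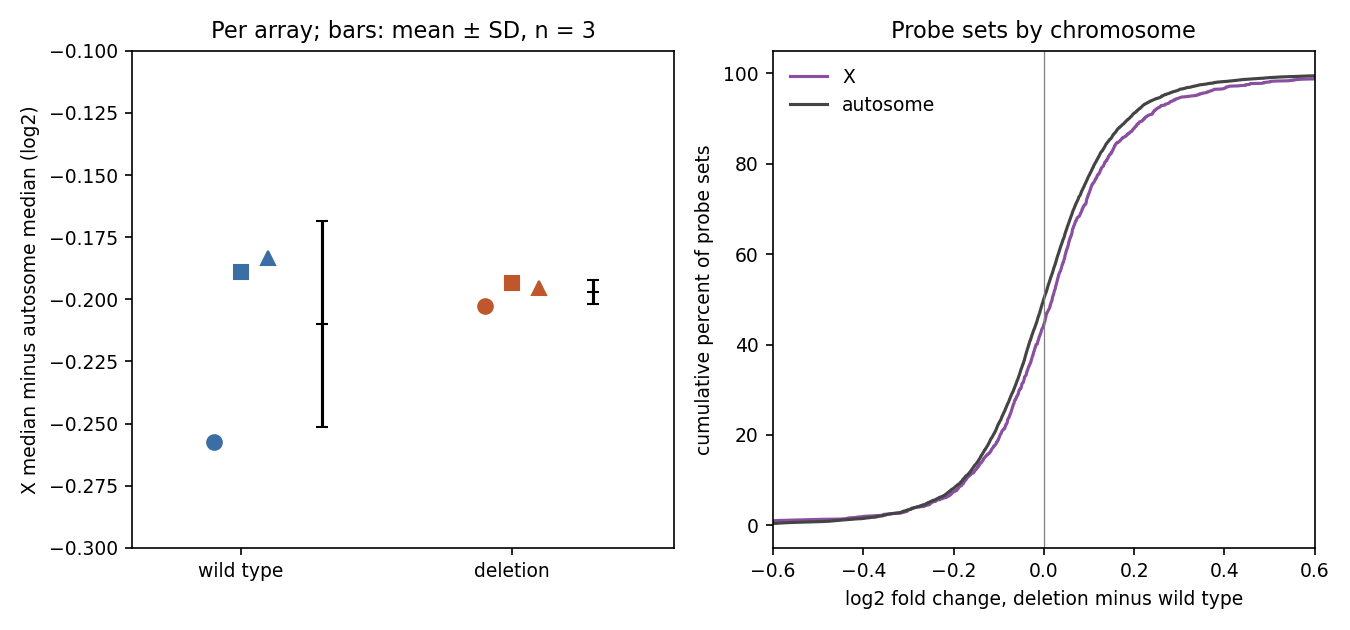
The left panel shows the median log2(intensity + 1) of X-linked probe sets minus that of autosomal ones on each array, with bars for the mean ± SD of 3 arrays, and the right panel the cumulative percent of X-linked and autosomal probe sets by log2 fold change. The deletion arrays (-0.20, -0.19 and -0.20) lie between wild-type replicate 1 (-0.26) and the other wild-type arrays, and the X and autosome curves run close together.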

How the data were processed

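For every probe set, the authors deposited a linear intensity on each array. Their steps of summary, background correction and normalization are not given in the sources used here. Medians of the arrays differed by 0.045 on the log2 scale, under a bound of 0.2, so no further normalization was applied. Arrays have no read depth, and their number limits the precision.

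A pseudocount of 1 was added, log2 was taken, and limma 3.58.1 was run under R 4.3.3. After removal of 183 controls from 18952 probe sets, a filter was set at the 40th percentile of the mean log2 value. Probe sets at or above it, an intensity of 8.35, numbered 11261 and entered the fit. Its term was genotype, with an intensity trend, two-sided, with Benjamini-Hochberg adjustment over all tested probe sets and a threshold of 0.05. The procedure was also run on simulated data with independent noise for each probe set. Such data leave out deviations that arrays share, so that run gives no support to the results here. Limma p-values compare the difference between genotypes with the spread between these arrays, moderated over probe sets.

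Genes were named through the platform annotation, updated by Entrez identifier in a RefSeq gene table (Release 6 plus ISO1 MT). Members were matched by current symbol, because old synonyms of mle and roX2 are borne by other genes too. Distances are in genes, with no coordinates, because the sources do not name the array's build.

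Members, lists and tests were chosen with earlier results of these data known. The text names all member probe sets, Sxl, cm and ct, up to 3 genes of each related list with the smallest p, and the 3 best matches in pattern to Su(var)3-7. Genes next to mof and Su(var)3-7, and Clamp, were added after their values were seen.

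Arrays of equal replicate number were checked for pairing. Correlations of their deviations from group means were 0.216, 0.248 and 0.114, all above the bound of 0.1, so the number was taken to pair the arrays. This pairing comes from the values, not the labels, and calls with the block may be too favourable. Alternatives changed the filter, the normalization, the pseudocount, the variance model, the weighting of arrays, the block or the threshold, or omitted an array.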

Additional observations from a re-analysis of the deposited data

How the results depend on the processing

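The count of called dosage compensation probe sets, 0 in the limma fit, was 1 with array weights, with the replicate block and at a threshold of 0.1, each time Su(var)3-7, and ran from 0 to 2 over the omissions of 1 array. The 2 were Su(var)3-7 (-0.56, adjusted p = 0.0253) and JIL-1, both without wild-type replicate 1. With array weights Su(var)3-7 had -0.52 (adjusted p = 0.0235), and over the alternatives that kept all arrays its adjusted p ran from 0.0235 to 0.103, against 0.0253 to 0.218 over the omissions of 1 array. The filter at the 60th percentile left 4 of the 8 probe sets, those of mle, msl-2, msl-1 and JIL-1. With it 0 of the 4 were called, where 324 of 7508 were. Su(var)3-7, mof and both msl-3 probe sets could not be tested there. The count over all probe sets, 293, was 128 without the intensity trend, 572 with array weights, 833 with the block, 683 at the threshold of 0.1, and from 54 to 432 when arrays were omitted singly. The median of the dosage compensation probe sets ran from -0.18 to -0.060 when arrays were omitted singly. The change of the X minus autosome median turned to -0.018 without the filter and to -0.019 with the filter at the 60th percentile, and ran from -0.0059 to 0.033 over the omissions of 1 array. Paired by replicate number it was 0.013 (exact sign-flip p = 1, smallest possible 0.25). The estimate of msl-2 turned to -0.029 with array weights and ran from -0.063 to 0.11 when arrays were omitted singly, and that of the msl-3 probe set not ending in a_at ran from -0.19 to 0.00046. Over the same omissions mof ran from 0.055 to 0.23, mle from -0.21 to -0.084 and the other msl-3 probe set from 0.069 to 0.16, and none of them passed. The cause of these changes was not tested, apart from the removal of arrays or probe sets by the alternative itself. The block changed no other call among the 8 probe sets. No background level was measured for the 8 probe sets themselves. The Sxl probe sets, in males without the gene, had means from 4.65 to 6.19.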
